A study of Mus musculus with 20 samples.

Results

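Collagen chain genes were selected by symbol alone: every row of the deposited expression table whose mouse gene symbol reads Col, a number, the letter a and a number. The rule found 44 of 25869 rows. They comprised 11 fibrillar chains, 6 chains of the type IV basement membrane network, 6 type VI chains, 9 FACIT chains (fibril-associated collagens with interrupted triple helices), 2 multiplexins, 3 short-chain network formers, the anchoring fibril chain *Col7a1*, 4 transmembrane chains, and *Col26a1* and *Col28a1*, which were given no class. All 44 had at least 1 read in at least 1 library.

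RNA-seq was performed on 20 mouse libraries. The 10 mouse embryonic fibroblast (MEF) libraries came from WT E14 embryos (2 libraries, 2 MEF lines) or from *dCas9a-SAM* KI/+ embryos, which carry from the *Rosa26* locus a nuclease-dead Cas9 fused to the VP64 activator together with the MS2-p65-HSF1 co-activator. The *dCas9a-SAM* KI/+ MEFs carried no guide (2 libraries), the non-targeting guide sgNT (2 libraries) or sg*Bcl-2*, which targets the *Bcl-2* promoter (4 libraries), and in each of these groups the titles number the MEFs 1 and 2. These numbers are called lines 1 and 2 here, and the labels do not state that a number marks the same embryo in every group. The labels did not say whether the 2 sg*Bcl-2* libraries of a line differed in guide or only in culture. The lymphoid libraries were 6 cell lines derived from *Eµ-Myc/dCas9a-SAM* KI/+/sg*Bcl-2* lymphomas (libraries 14 to 17 IgM-positive, 18 and 19 IgM-negative), 2 IgM-positive primary tumours of that genotype (libraries 20 and 21, from the mice of lines 14 and 15, with the mouse numbers of the tumours given in opposite order in 2 label fields) and 2 preB acute lymphoblastic leukaemia (preB-ALL) samples of genotype BCR-ABL1 (p190T/+), named P190CreERLSLErg (library 1) and P190RagCreErg (library 2). The lymphomas arose in irradiated mice reconstituted with modified foetal liver stem and progenitor cells. No drug treatment of these samples is described. The vectors of sg*Bcl-2* and sgNT carry puromycin resistance, and whether the MEFs with a guide were selected is not stated. The leukaemia cells were grown in IMDM with IL7 and their RNA was extracted with a different kit from that used for the MEFs, grown in DMEM, and the lymphoma cells, grown in FMA medium. The p-values measure only the spread between these samples, which may be technical where libraries of 1 group share a MEF line.

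Between 12474885 and 26678417 reads per library were assigned to genes, with the 2 preB-ALL libraries the shallowest. A single read was worth 0.0431 CPM (read counts scaled to a common library total) in no guide line 1, and values at or below 3 reads (0.129 CPM in that library) were treated as not distinguishable from 0. *Bcl2*, the targeted gene, was at 46.8 to 71.8 CPM in the 4 sg*Bcl-2* MEF libraries against 13.4 and 13.7 CPM in the 2 sgNT libraries. WT line 2 stood apart from the other 9 MEF libraries. Its 8 macrophage markers summed to 80.3 CPM, with *Csf1r* at 24.4 CPM and *Adgre1* at 17.4 CPM, whereas the other MEF libraries held 1.17 to 3.61 CPM. Its 10 endothelial markers summed to 77.5 CPM, against 17.9 to 28.4 CPM in the other MEF libraries. In all 10 MEF libraries the 12 fibroblast markers were above 3 reads, with sums of 3249 to 8549 CPM.

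Collagens are trimers of chains that wind around each other in a triple helix. The fibrillar chains of types I, II, III, V and XI build the banded fibres of connective tissue and cartilage, with types I, III and V the usual products of fibroblasts and type II the main collagen of cartilage. Type IV chains form the sheet beneath epithelium and around vessels, type VI chains form beaded filaments around cells, FACIT chains decorate fibril surfaces, and the multiplexins *Col15a1* and *Col18a1* carry a C-terminal endostatin domain and lie in basement membrane zones. In bulk RNA a lower level can reflect fewer cells of a type or less RNA per cell, and these cannot be told apart.

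The regulatory sequence before the annotated start was available for 35 of the 44 genes (38 windows of 250 bases, RefSeq, GRCm38.p6). A GC box (GGGCGG on either strand) was found in 22 of these 38 windows (57.9%) and in 32.7% of 32851 windows over all genes. A CCAAT box (CCAAT on either strand) was found in 34.2% of the collagen windows and 33.8% of all windows. A TATA box (TATAAA on either strand) was found in 13.2% and 12.4%, respectively. Overlapping matches were counted, and a match describes the letters only. The 5 windows printed here belong to chains that the results turn on. They are *Col1a2* and *Col3a1*, both higher with sgNT than without a guide, *Col8a2*, the chain with the largest rise in that comparison, *Col18a1* (its upstream start), among the chains with the largest falls, and *Col11a2*, the highest chain per kilobase in the mean of the lymphoma lines. Each is written 5′ to 3′ on the strand of its gene, ends at the base before the start site, and has the 3 motifs in capitals.
Col1a2, chr6:4505368-4505617, plus strand: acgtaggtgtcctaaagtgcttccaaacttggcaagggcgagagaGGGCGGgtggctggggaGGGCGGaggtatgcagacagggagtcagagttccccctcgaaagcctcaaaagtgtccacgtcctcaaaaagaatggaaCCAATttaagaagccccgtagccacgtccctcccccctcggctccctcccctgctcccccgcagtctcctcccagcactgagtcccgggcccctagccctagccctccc
Col3a1, chr1:45311288-45311537, plus strand: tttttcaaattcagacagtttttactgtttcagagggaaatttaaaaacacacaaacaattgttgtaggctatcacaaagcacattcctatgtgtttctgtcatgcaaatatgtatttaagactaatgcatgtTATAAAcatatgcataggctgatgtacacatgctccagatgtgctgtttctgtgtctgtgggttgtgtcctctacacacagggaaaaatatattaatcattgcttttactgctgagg
Col8a2, chr4:126286544-126286793, plus strand: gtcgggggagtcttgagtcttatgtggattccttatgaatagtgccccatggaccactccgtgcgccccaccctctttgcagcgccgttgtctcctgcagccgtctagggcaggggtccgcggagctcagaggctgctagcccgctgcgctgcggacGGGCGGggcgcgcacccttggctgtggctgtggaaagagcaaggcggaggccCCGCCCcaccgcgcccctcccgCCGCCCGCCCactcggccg
Col18a1, chr10:77166531-77166780, minus strand: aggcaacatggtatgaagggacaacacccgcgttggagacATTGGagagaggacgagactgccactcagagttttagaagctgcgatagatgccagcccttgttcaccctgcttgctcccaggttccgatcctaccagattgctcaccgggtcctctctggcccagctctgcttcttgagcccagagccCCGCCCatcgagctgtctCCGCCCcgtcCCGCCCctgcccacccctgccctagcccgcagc
Col11a2, chr17:34038888-34039137, plus strand: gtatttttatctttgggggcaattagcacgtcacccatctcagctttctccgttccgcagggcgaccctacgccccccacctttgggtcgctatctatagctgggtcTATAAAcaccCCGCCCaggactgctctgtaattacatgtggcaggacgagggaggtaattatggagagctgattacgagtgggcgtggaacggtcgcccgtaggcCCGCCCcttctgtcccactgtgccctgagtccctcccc

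The *Col1a2* window held 2 GC boxes and 1 CCAAT box, the *Col3a1* window held 1 TATA box and neither of the others, the *Col8a2* window held 4 GC boxes, and the *Col18a1* window held 3 GC boxes and 1 CCAAT box. The 2 main basement membrane chains *Col4a1* (minus strand) and *Col4a2* (plus strand) lie head to head on chromosome 8, with annotated starts at 11312826 and 11312805, so that 22 bases (RefSeq, GRCm38.p6, plus strand, GC box in capitals) lie downstream of both starts.
Col4a1 and Col4a2, chr8:11312805-11312826: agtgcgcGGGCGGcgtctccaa
The gene bodies of *Col4a1* and *Col4a2* overlap by 85 bases and those of *Col4a4* and *Col4a3* by 114 bases. The library kit does not mark strand, so reads in these overlaps cannot be assigned to one partner.

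Collagen chains took 1.58% to 1.97% of all reads in the 8 *dCas9a-SAM* KI/+ MEF libraries, 1.59% in WT line 1 and 0.481% in WT line 2. They took 0.611% and 0.316% in preB-ALL libraries 1 and 2. The 6 lymphoma lines held between 0.00205% and 0.0112%, and the primary tumours 0.0120% and 0.00862%. The plot of class sums by library shows these levels per class.

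**Figure D1:**
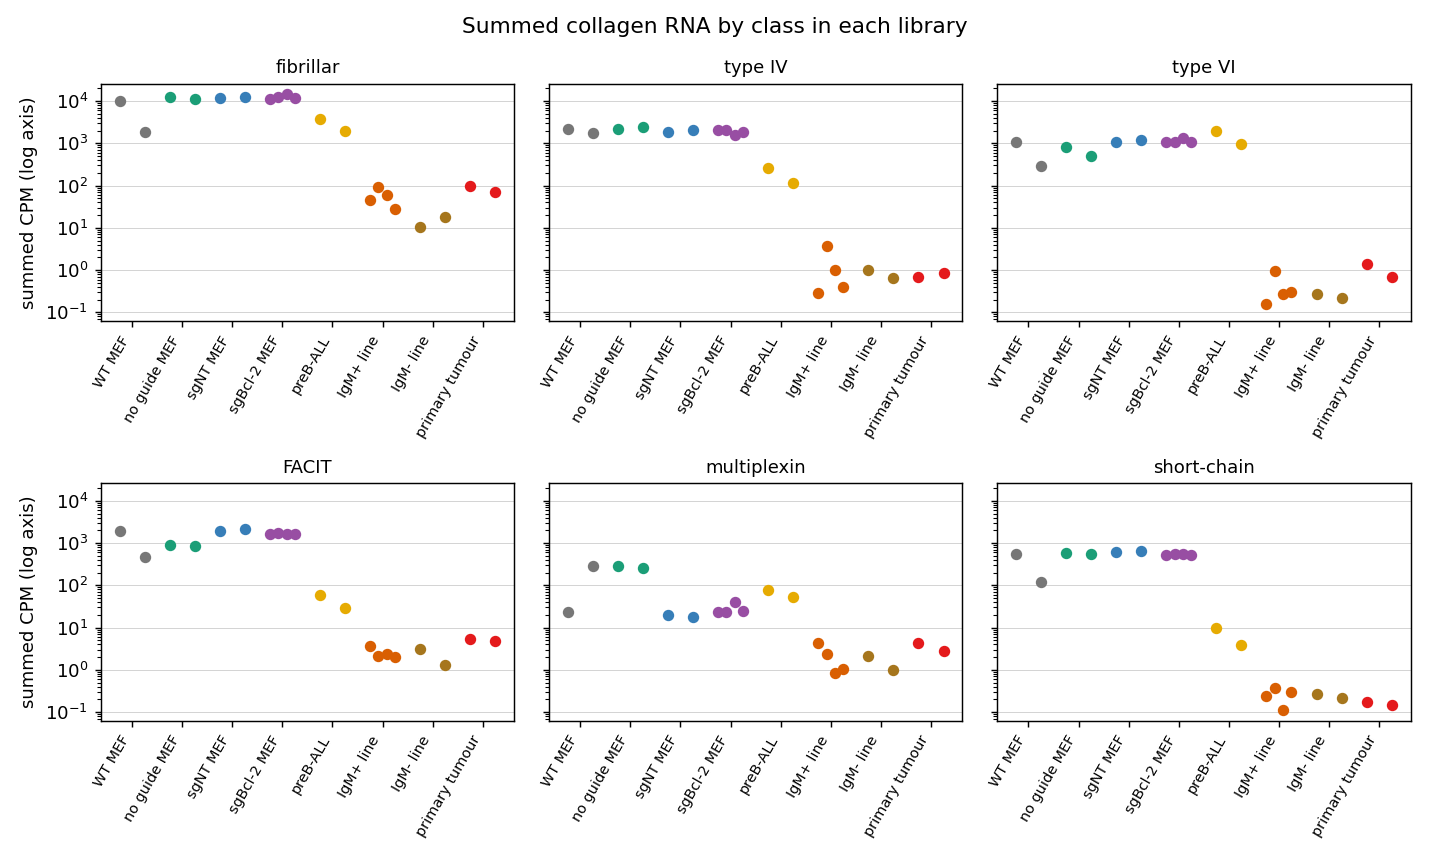
Summed CPM (log axis) of the chains of 6 collagen classes in each of the 20 libraries, 1 point per library, by group. The fibrillar sum was at least 1813 CPM in every MEF and preB-ALL library and at most 99.97 CPM in every lymphoma line and tumour, and the multiplexin sum split the MEF libraries into WT line 2 and no guide (259.6 to 287 CPM) and the rest (17.7 to 40.1 CPM).

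Fibrillar chains supplied 66.4% to 73.2% of collagen reads in the *dCas9a-SAM* KI/+ MEFs and 62.0% in WT line 1. In WT line 2 they supplied 37.7%, nearly the same as the 36.8% from type IV chains. In preB-ALL, type VI chains supplied 32.8% and 30.8%, against 3.24% to 6.71% in the MEFs. Per kilobase of mRNA, *Col1a1* and *Col1a2*, the chains of type I collagen, had the highest mean levels over the 10 MEF libraries (683 ± 230 and 549 ± 197 CPM per kilobase, SD, n = 10), followed by *Col5a2*, *Col3a1* and *Col4a1*, at 192 ± 73.0, 186 ± 113 and 162 ± 20.6 CPM per kilobase. The means of *Col5a2* and *Col3a1* differed by less than either SD, and the mean of *Col4a1* lay within 1 SD of each of theirs, though its own SD was smaller than both gaps. WT line 2 was the exception, with *Col4a1* highest at 147 CPM per kilobase and *Col1a1* at 59.3.

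**Figure D2:**
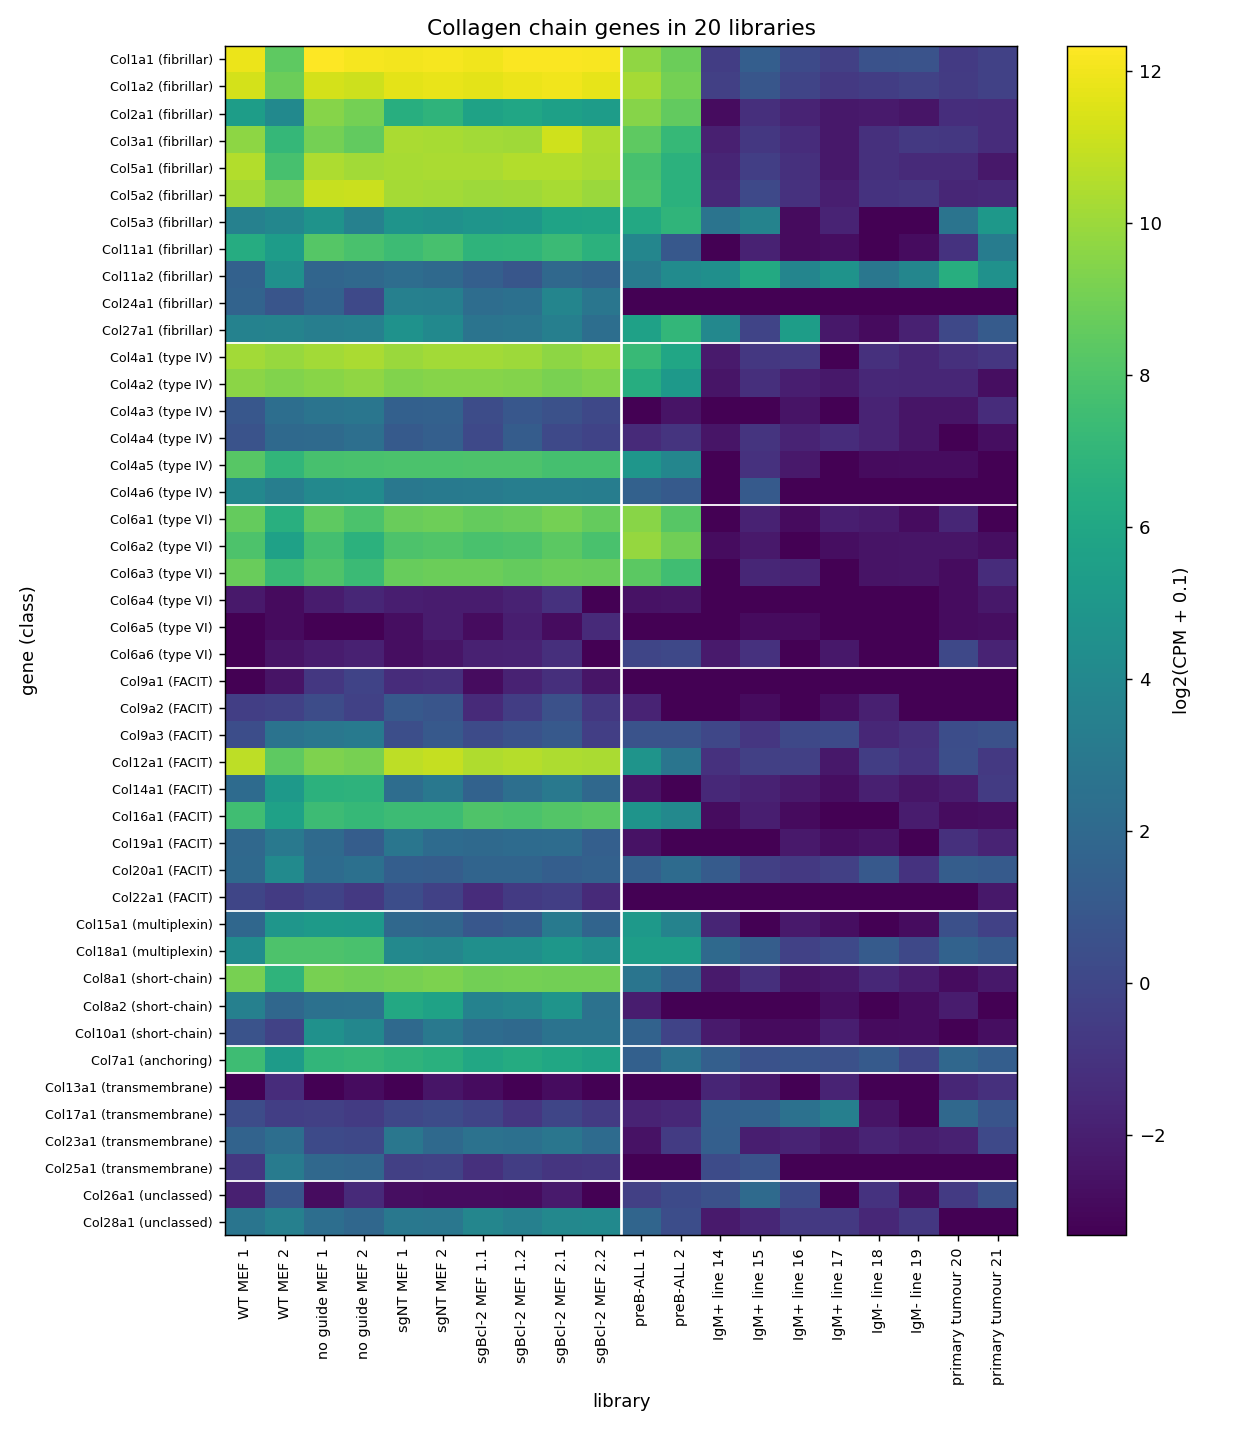
Level of each of the 44 collagen genes as log2(CPM + 0.1) in 20 libraries, with genes in rows by class and libraries in columns by group. *Col1a1*, *Col1a2*, *Col3a1*, *Col4a1*, *Col4a2*, *Col5a1* and *Col5a2* were higher in every MEF library other than WT line 2 than in both preB-ALL libraries, *Col6a1* and *Col6a2* were high in both, and *Col11a2* was at 7.38 to 89.98 CPM over the lymphoma lines and tumours.

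The first question was whether the activator cassette alone changed collagen RNA. None of the 39 chains tested passed the threshold of adjusted p under 0.05 in no guide against WT MEFs by limma, with 0% of 14546 genes called higher and 0% called lower. At an unadjusted p under 0.05 there were 8 chains and 1081 genes, and edgeR, limma-voom and both other scalings also called 0 chains. The median chain difference was 0.51 on the log2 scale, against -0.0045 for all genes tested. It depended on the WT library, at -0.0028 without WT line 2 and 0.60 without WT line 1.

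The 2 WT lines differed from each other. *Col1a1* was at 3682 CPM in WT line 1 and 352 CPM in WT line 2, beside 5134 and 4341 CPM in the no guide libraries. *Col18a1*, which encodes the precursor of endostatin, was at 19.3 and 253 CPM in WT lines 1 and 2 and at 249.6 and 226 CPM without a guide. *Col12a1*, a FACIT chain found on type I fibrils, was at 1766 and 346 CPM in WT and at 624 and 562 CPM without a guide. In each of these the no guide libraries lay near one WT line and away from the other, and not always the same one. Of 40 chains with a read in both WT libraries, 18 were more than 2 times higher in WT line 1 and 11 more than 2 times higher in WT line 2. No such count was made over all genes. Over all genes the chi-square of reads per degree of freedom was 326 for the WT pair. It was 7.32 to 26.8 for pairs within the other MEF groups.

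None of the main fibrillar and basement membrane chains passed the test. The log2 difference of no guide over WT was 2.09 ± 1.30 (SE) for *Col1a1*, 1.19 ± 1.00 for *Col1a2*, 0.45 ± 0.98 for *Col3a1* and 1.44 ± 0.51 for *Col5a2*, which encodes a chain of the type V collagen that nucleates fibrils. It was 0.25 ± 0.30 for *Col4a1*, 0.21 ± 0.28 for *Col4a2*, 0.62 ± 0.83 for *Col6a1* and 1.80 ± 1.25 for *Col18a1*, with adjusted p from 0.667 to 0.905 over these 8 genes.

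The chains with the smallest p were *Col2a1*, *Col10a1*, *Col23a1* and *Col11a1*, adjusted p 0.608 to 0.642 by limma. *Col2a1*, the type II chain, was at 40.9 and 16.8 CPM in WT and at 713 and 538 CPM without a guide, a log2 difference of 4.60 ± 0.56. *Col10a1*, the collagen of hypertrophic cartilage, was at 1.54 and 0.760 CPM in WT and at 23.8 and 15.3 CPM without a guide. *Col11a1*, a minor fibrillar chain of cartilage, was at 82.5 and 39.5 CPM in WT and at 291 and 228 CPM without a guide. For these 3 chains both no guide libraries lay above both WT libraries. *Col23a1*, a transmembrane chain, went the other way, at 3.02 and 4.90 CPM in WT and at 1.03 and 0.946 CPM without a guide (-1.82 ± 0.39). Among cartilage markers, *Acan* was at 0 and 4.67 CPM in WT lines 1 and 2 and at 2.59 and 1.25 CPM without a guide, *Matn1* had at most 1 read in any of these 4 libraries, and *Sox9* was at 26.02 to 45.9 CPM. *Comp*, a cartilage matrix protein, was at 6.47 and 1.10 CPM in WT and at 24.9 and 24.1 CPM without a guide (3.16 ± 0.96, adjusted p = 0.648 by limma).

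Leaving out either WT library changed the count of calls, for the chains and over all genes. Without WT line 2 there were 12 chains called higher and 8 lower, where 16.8% of 14806 genes were called higher and 15% lower. Without WT line 1 there were 21 higher and 6 lower, where 28.3% of 15566 genes were called higher and 26.8% lower. Each of these fits had 1 WT library. *Col2a1* and *Col10a1* were higher without a guide in both cases (log2 3.86 and 3.50 without WT line 2, 5.37 and 4.64 without WT line 1), whereas *Col12a1* was at -1.63 without WT line 2 and 0.95 without WT line 1, and *Col3a1* at -0.90 and 1.85. A fit of all 10 MEF libraries called 4 chains higher and 1 lower, where 3.01% of 15158 genes were called higher and 1.72% lower. The part of the macrophage and endothelial marker RNA of WT line 2 in these values was not tested.

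The comparison of *dCas9a-SAM* KI/+ MEFs carrying sgNT with WT MEFs shared the WT libraries and gave 0 calls among 38 chains by limma, with 0% of 14560 genes called higher and 0% lower. At an unadjusted p under 0.05 there were 7 chains and 589 genes, and edgeR called 0 chains. The median chain difference was 0.52 (log2), against 0.02 for all genes. It was 0.13 without WT line 2 and 0.90 without WT line 1.

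By class, 10 of the 11 fibrillar chains had a log2 difference above 0 (median 1.71) and 4 of the 6 type IV chains one below 0 (median -0.06), none of them called. *Col8a2*, a short-chain collagen of basement membranes, was at 11.0 and 3.61 CPM in WT and at 70.9 and 50.8 CPM with sgNT (log2 3.24 ± 0.65). *Col24a1*, a fibrillar chain, was at 3.08 and 1.63 CPM in WT and at 11.4 and 10.9 CPM with sgNT (log2 2.27 ± 0.46). *Col5a3* (0.95 ± 0.23) and *Col11a1* (1.77 ± 0.47) completed the 4 chains with the smallest p, adjusted p 0.800 for each of the 4 by limma. *Col1a1* (1.95 ± 1.27), *Col1a2* (1.71 ± 0.99), *Col3a1* (1.92 ± 0.95), *Col5a2* (0.55 ± 0.50), *Col6a1* (1.20 ± 0.79) and *Col18a1* (-2.18 ± 1.24) had wide errors. *Col4a1* and *Col4a2* were at 0.0010 ± 0.32 and -0.05 ± 0.28. Without WT line 2, 7 chains were called higher and 3 lower, where 6.52% of 14702 genes were called higher and 4.67% lower. Without WT line 1 these numbers were 20 and 8, where 26.9% of 15768 genes were called higher and 26.5% lower.

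The 2 WT libraries aside, the *dCas9a-SAM* KI/+ MEFs carrying sgNT differed from those without a guide in many collagen chains. Of 39 chains tested, 12 rose and 13 fell with sgNT by limma at adjusted p under 0.05. Over all 14655 genes, 20.3% rose and 20.9% fell. The median chain difference was 0.08 (log2) and the median over all genes 0.0050. The plot of fold changes by chain shows each value.

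**Figure D3:**
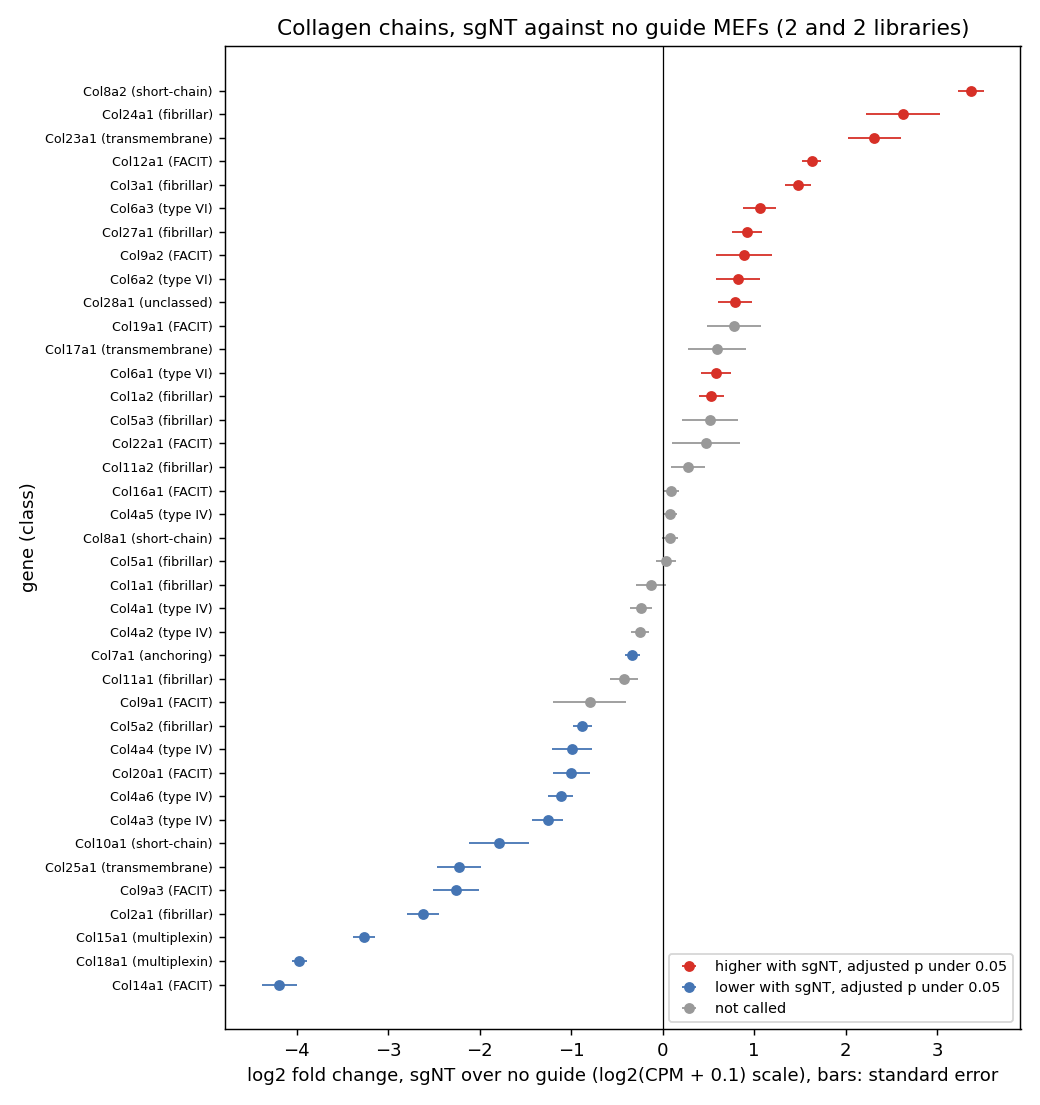
Log2 fold change of sgNT over no guide MEFs (log2(CPM + 0.1) scale, limma) for the 39 collagen chains tested, ordered by size, with bars for the standard error. Red chains were higher and blue chains lower at adjusted p under 0.05, and values ran from -4.19 for *Col14a1* to 3.37 for *Col8a2*.

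Among fibrillar chains, 4 of 11 rose and 2 fell. *Col3a1*, the type III chain of loose connective tissue, was at 527 and 375 CPM without a guide and at 1285 and 1226 CPM with sgNT, a log2 rise of 1.48 ± 0.15 (SE, adjusted p = 0.000249). *Col1a2* was at 2551 and 2228 CPM without a guide and at 3353 and 3621 CPM with sgNT (0.53 ± 0.14, adjusted p = 0.0174). Both sgNT libraries lay above both no guide libraries for these chains. *Col24a1* (2.62 ± 0.40) and *Col27a1* (0.92 ± 0.16), both minor fibrillar chains, rose as well.

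*Col1a1* did not pass the test, at 5134 and 4341 CPM without a guide and 4250.2 and 4497 CPM with sgNT (-0.13 ± 0.16, adjusted p = 0.56). Type I collagen is built of 2 *Col1a1* chains and 1 *Col1a2* chain, and the ratio of *Col1a1* to *Col1a2* per kilobase of mRNA was 1.82 and 1.76 without a guide, 1.14 and 1.12 with sgNT and 1.08 to 1.17 with sg*Bcl-2*. WT lines 1 and 2 had ratios of 1.29 and 0.713. *Col2a1* fell from 713 and 538 CPM to 88.1 and 118 CPM (-2.62 ± 0.17, adjusted p = 4.59e-05), and *Col5a2* fell from 2049 and 2169 CPM to 1177 and 1147 CPM (-0.88 ± 0.10, adjusted p = 0.000478). The groups did not overlap for either chain.

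No type IV chain was called higher. *Col4a1* was at 1157 and 1300.3 CPM without a guide and 986 and 1124 CPM with sgNT (-0.24 ± 0.12, adjusted p = 0.144), and *Col4a2* at 756 and 840.5 CPM and 654 and 703 CPM (-0.25 ± 0.10, adjusted p = 0.0762). The minor chains *Col4a3* (-1.26 ± 0.17), *Col4a4* (-0.99 ± 0.22) and *Col4a6* (-1.11 ± 0.14) fell, each from at most 18.8 CPM. *Col4a5* was at 217 and 226 CPM without a guide and at 234.5 and 240.3 CPM with sgNT, without overlap, and did not pass the test (0.08 ± 0.07, adjusted p = 0.362). The ratio of *Col4a1* to *Col4a2* per kilobase, which form the common trimer of 2 α1 chains and 1 α2 chain, stayed between 1.39 and 1.56 in all 10 MEF libraries.

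Both multiplexins fell. *Col18a1* was at 249.6 and 226 CPM without a guide and at 16.3 and 14.2 CPM with sgNT, 15.7-fold lower (log2 -3.97 ± 0.08, adjusted p = 1.21e-06). *Col15a1* was at 37.4 and 33.9 CPM and at 3.80 and 3.52 CPM, 9.61-fold lower (-3.26 ± 0.12, adjusted p = 5.87e-06). Each sgNT library lay near WT line 1 (19.3 and 3.71 CPM) and each no guide library near WT line 2 (253 and 29.2 CPM) for these 2 chains.

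FACIT chains divided. *Col12a1* rose from 624 and 562 CPM to 1764 and 1947 CPM (1.63 ± 0.11, adjusted p = 4.59e-05), and *Col14a1*, another FACIT of type I fibrils, fell from 108 and 113 CPM to 4.82 and 7.49 CPM (-4.19 ± 0.19, adjusted p = 1.14e-05). *Col9a2* rose, whereas *Col9a3* (-2.26 ± 0.25) and *Col20a1* fell, and *Col16a1* was at 172 and 145 CPM against 169.9 and 171 CPM (0.09 ± 0.09). In the short-chain class *Col8a2* rose from 5.52 and 5.76 CPM to 70.9 and 50.8 CPM (3.37 ± 0.14, adjusted p = 9.01e-06) and *Col10a1* fell, while its network partner *Col8a1* was at 560.4 and 521 CPM and at 552 and 604 CPM (0.08 ± 0.09). The transmembrane chain *Col23a1* rose by 2.31 ± 0.29 and *Col25a1*, the amyloid plaque component precursor, fell by 2.22 ± 0.24.

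Type VI chains rose together, by 0.58 ± 0.16 for *Col6a1*, 0.83 ± 0.24 for *Col6a2* and 1.06 ± 0.18 for *Col6a3*, which form the usual type VI trimer. *Col6a1* was at 355 and 240.4 CPM without a guide and at 427 and 459 CPM with sgNT. The other 3 type VI chains were too low to be tested. *Col7a1* fell by 0.33 ± 0.09 and *Col28a1* rose by 0.79 ± 0.18.

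**Figure D4:**
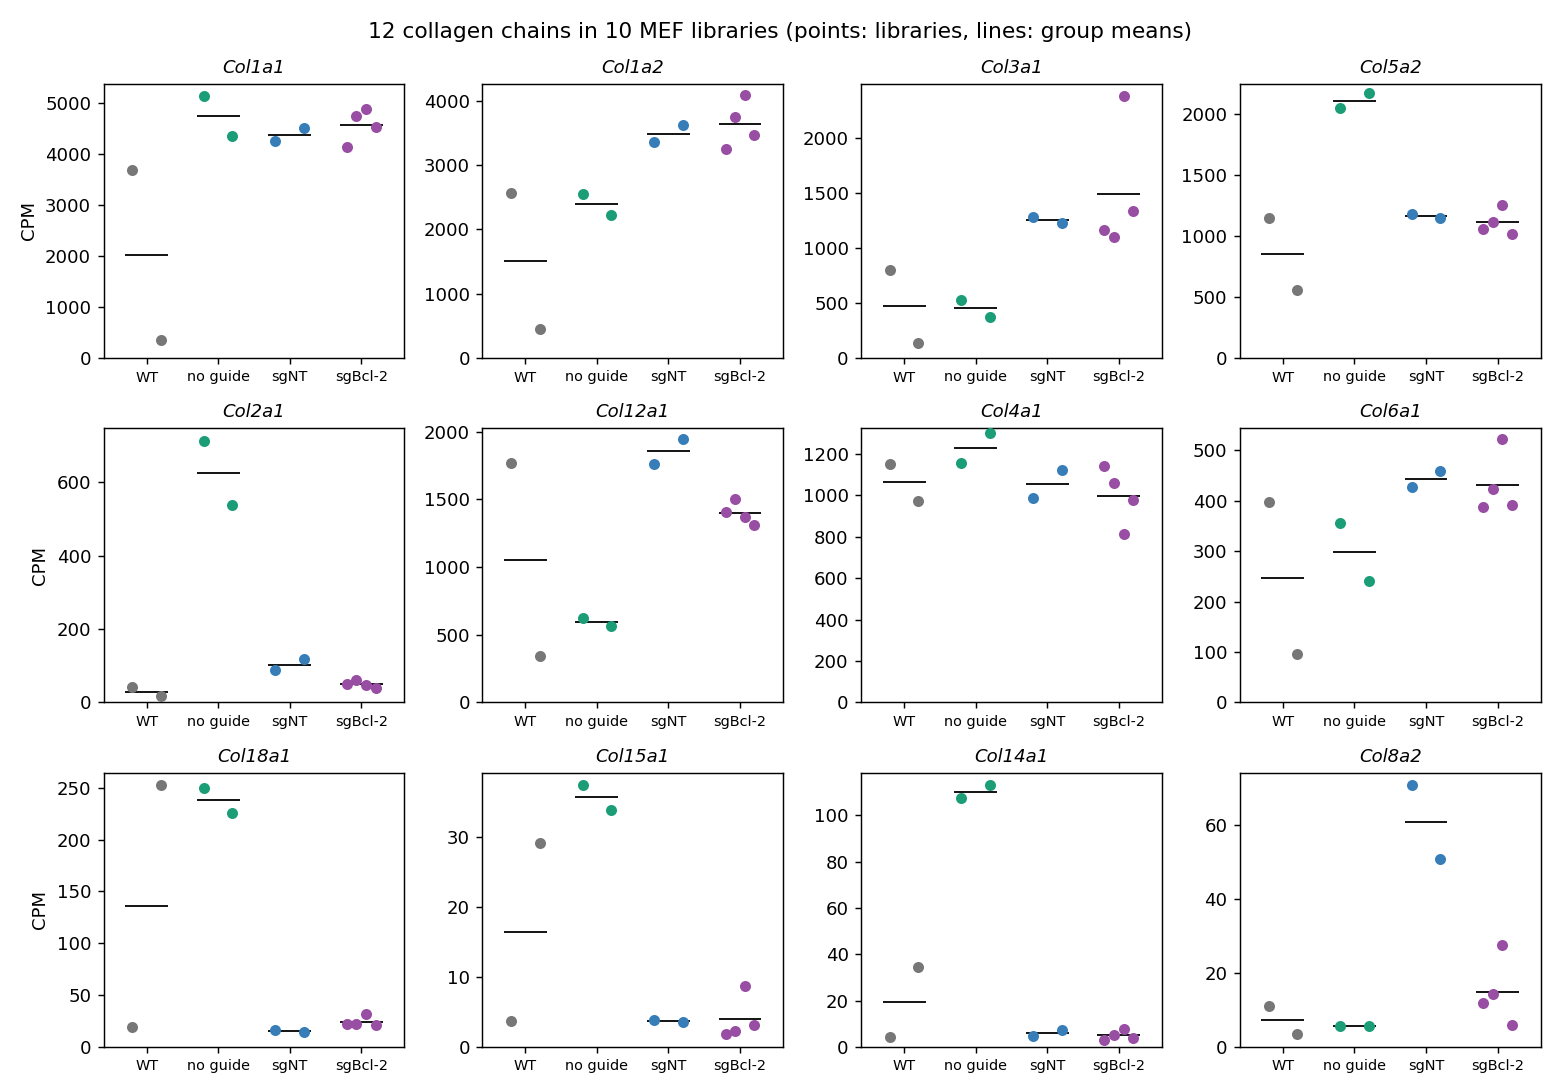
CPM of 12 collagen chains in the 10 MEF libraries (linear axes from 0, 1 point per library, lines at group means). *Col1a1* overlapped between the *dCas9a-SAM* KI/+ groups, *Col4a1* without a guide (1157 and 1300.3 CPM) lay just above both guide groups (up to 1144 CPM), *Col3a1* and *Col12a1* were higher and *Col2a1*, *Col14a1*, *Col15a1* and *Col18a1* lower with either guide than without, and the WT lines were far apart for *Col1a1*, *Col12a1* and *Col18a1*.

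The WT libraries gave no common reference for these 25 chains. On the log2 scale WT line 1 lay nearer to the sgNT mean than to the no guide mean for 7 of the 12 chains that rose and 10 of the 13 that fell, whereas WT line 2 lay nearer to sgNT for 2 of 12 and 5 of 13. Matching counts over all genes were not made. Of the 33 genes that modify, cleave or crosslink collagen or act as its receptors, 16 rose and 4 fell among 31 tested. The called genes with the smallest adjusted p were *P4ha3*, a proline hydroxylase subunit (1.15 ± 0.08), *P3h2*, a prolyl 3-hydroxylase (1.39 ± 0.13), *Adamts2*, which removes the N-propeptide of fibrillar procollagens (1.52 ± 0.17), and *Pcolce*, an enhancer of C-propeptide removal (0.80 ± 0.09). *Serpinh1*, the collagen chaperone HSP47, was among the 4 that fell, by 0.47 ± 0.09.

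Markers of fibroblasts moved in the same comparison. Of 12 fibroblast markers 11 rose, with summed CPM of 4635 to 5041 without a guide and 6881 to 6892 with sgNT, and the largest rise was 5.87 ± 0.13 for *Dpt* (3.23 and 2.45 CPM to 186 and 161 CPM). Of 8 mural and smooth muscle markers 2 rose, *Notch3* by 1.99 ± 0.22 and *Myh11* by 0.70 ± 0.15, and 4 fell, *Cspg4* by 1.88 ± 0.15, with summed CPM of 6006 to 7184 without a guide and 4543 to 5436 with sgNT. Of the 3 cartilage markers tested, *Sox9* rose by 0.72 ± 0.09 and *Acan*, at 2.59 and 1.25 CPM without a guide and 0.0975 and 0.372 CPM with sgNT, fell by 2.65 ± 0.52, and *Comp* did not pass the test (-0.76 ± 0.29). Of the 7 endothelial markers tested 3 rose and 3 fell. Of the 6 markers of marrow stroma and bone tested 0 rose and 3 fell, *Lepr* (log2 -2.83 ± 0.22), *Kitl* (-0.63 ± 0.07) and *Runx2* (-0.37 ± 0.12). Their part in the collagen values was not tested. Guide, transduction and any puromycin selection cannot be told apart here, since the MEFs without a guide were not described as transduced.

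Of the 25 calls, 17 held when any 1 of the 4 libraries was left out. *Col1a2* lost its call without sgNT line 2 (adjusted p = 0.0654), no guide line 1 (0.0639) or no guide line 2 (0.174). *Col6a1* lost its call without sgNT line 1, sgNT line 2 or no guide line 2, where its log2 difference was 0.67, 0.50 and 0.30. *Col6a2* lost its call without sgNT line 1 or line 2, where its log2 difference was 0.91 and 0.75. *Col4a4*, *Col7a1*, *Col9a2*, *Col20a1* and *Col28a1* lost theirs in at least 1 of these fits. Fitted together with the WT and sg*Bcl-2* libraries, only 3 chains were higher and 4 lower, where 3.16% of 15158 genes were called higher and 2.78% lower.

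The next comparison set the *Bcl-2* guide against sgNT. Of 38 chains tested, 3 rose and 5 fell with sg*Bcl-2* by limma (4 libraries against 2), where 6.61% of 14676 genes rose and 4.24% fell. The median chain difference was -0.04 and the median over all genes -0.013. *Col16a1*, a FACIT chain, rose from 169.9 and 171 CPM with sgNT to 240.1 to 325 CPM with sg*Bcl-2* (0.78 ± 0.12, adjusted p = 0.00838), without overlap. *Col28a1*, a chain with von Willebrand A domains, rose from 7.46 and 7.37 CPM to 11.3 to 17.1 CPM (1.03 ± 0.17, adjusted p = 0.0101). *Col18a1* was at 16.3 and 14.2 CPM with sgNT and at 21.9, 21.8, 31.3 and 21.0 CPM with sg*Bcl-2* (0.72 ± 0.16, adjusted p = 0.0249).

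The 5 chains that fell were *Col2a1*, *Col27a1*, *Col8a2*, *Col7a1* and *Col4a3*. *Col2a1* was at 88.1 and 118 CPM with sgNT and at 50.9, 61.3, 48.0 and 39.4 CPM with sg*Bcl-2* (-0.96 ± 0.17, adjusted p = 0.0128). *Col27a1* was at 24.9 and 17.0 CPM and at 6.39, 7.04, 10.6 and 4.97 CPM (-1.45 ± 0.26, adjusted p = 0.014). *Col8a2* was at 70.9 and 50.8 CPM and at 11.9, 14.3, 27.5 and 5.96 CPM (-2.12 ± 0.47, adjusted p = 0.0267). No sg*Bcl-2* library reached the lower sgNT library for these chains. *Col7a1*, the chain of anchoring fibrils beneath the epidermis, fell by 0.63 ± 0.14, and *Col4a3* by 0.98 ± 0.26.

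The abundant chains did not pass the test by limma in the main fit. Among them *Col12a1* was at 1764 and 1947 CPM with sgNT and at 1404, 1503, 1374 and 1308 CPM with sg*Bcl-2*, without overlap. It was called lower by edgeR, limma-voom and the fit with no scaling. Other abundant chains differed less. The log2 difference was 0.15 ± 0.13 for *Col1a1*, 0.15 ± 0.13 for *Col1a2*, 0.27 ± 0.27 for *Col3a1*, 0.02 ± 0.09 for *Col5a2*, 0.0017 ± 0.14 for *Col4a1*, 0.05 ± 0.11 for *Col4a2* and 0.04 ± 0.12 for *Col6a1*, with adjusted p from 0.4655 to 0.995. *Col3a1* was at 1164, 1098, 2384 and 1335 CPM in the 4 sg*Bcl-2* libraries, so line 2 library 1 stood above the other 3. A p that misses the threshold does not show that levels were equal. Among the other chains *Col5a3* was at 28.5 and 30.6 CPM in line 1 and 54.5 and 56.3 CPM in line 2 with sg*Bcl-2* (0.74 ± 0.29, adjusted p = 0.127).

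Most of the 8 calls needed both sgNT libraries, whereas the log2 differences of all 8 chains had the same sign without either. *Col16a1* was at 0.75 without sgNT line 1 and 0.82 without sgNT line 2, *Col28a1* at 1.01 and 1.05 and *Col8a2* at -1.90 and -2.32. Over all genes 1592 were called with both sgNT libraries, 156 without line 1 and 198 without line 2. Without sgNT line 1 only *Col2a1* was called (lower, as were 0.306% of 15025 genes), without sgNT line 2 no chain was by limma (10 chains had an unadjusted p under 0.05), and without sg*Bcl-2* line 1 library 1 there were 3 higher and 2 lower (4.31% and 2.24% of 14651 genes). With all 10 MEF libraries in 1 fit there were 0 calls, where 0.297% of 15158 genes were called higher and 0.125% lower. At an unadjusted p under 0.05 that limma fit had 7 of 39 chains and 1786 genes. By edgeR 3 chains were higher and 6 lower (6.15% and 4.44% of 14676 genes). The sgNT libraries also served in the comparison with no guide. There *Col2a1*, *Col4a3*, *Col7a1* and *Col18a1* were lower and *Col8a2*, *Col27a1* and *Col28a1* higher with sgNT, so the 2 sets of values are not independent. Of the 33 assembly genes 3 rose and 3 fell among 32 tested, with *P3h2* falling by 1.53 ± 0.17 and *P4ha3* by 0.72 ± 0.13, while the crosslinking enzyme *Loxl1* rose by 0.40 ± 0.08. Of 12 fibroblast markers 5 rose (*Twist2* by 1.01 ± 0.11, *Dcn* by 1.33 ± 0.30) and *Dpt* fell by 0.83 ± 0.20. Of 8 mural markers *Cspg4* rose by 0.58 ± 0.14, and *Rgs5* fell by 1.66 ± 0.33 and *Cnn1* by 0.67 ± 0.15, with summed CPM of 4543 to 5436 with sgNT and 3150.05 to 4158 with sg*Bcl-2*. Their part in the collagen values was not tested.

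The B lineage libraries were compared for collagen RNA, which is mainly a product of stromal cells. In the 6 lymphoma lines the highest chain of the type I, III, IV and VI collagens was *Col1a1*, at 2.47 CPM in line 15. Of 32 chains tested, 23 were lower in the lymphoma lines than in preB-ALL and 0 were higher by limma, where 22.5% of 13961 genes were lower and 20.9% higher. Of the 9 chains not called, 1 had an unadjusted p under 0.05, where 24 chains and 7277 genes had one in all. By edgeR 20 chains and 20.6% of genes were lower and 0 chains higher. The median chain difference was -5.31 (log2) against -0.07 for all genes.

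*Col1a1* was at 855 and 456 CPM in preB-ALL and at 0.608 to 2.47 CPM (median 1.23) in the 6 lines, a log2 difference of -8.59 ± 0.54 (SE, adjusted p = 8.22e-06). *Col1a2* was at 1176 and 526 CPM and at 0.498 to 1.69 CPM (-9.45 ± 0.50, adjusted p = 3.35e-06). *Col3a1* was at 355 and 144 CPM and at 0.0996 to 0.517 CPM (-8.85 ± 0.60, adjusted p = 1.17e-05). The groups were far apart for all 3. *Col5a1* (-8.31 ± 0.56) and *Col5a2* (-8.00 ± 0.62), the partner chains of type V collagen, followed them.

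Of all chains tested, *Col6a2* and *Col6a1* had the largest log2 differences in the main fit. *Col6a2* was at 927 and 481 CPM in preB-ALL and at 0 to 0.112 CPM in the lines (-11.76 ± 0.46, adjusted p = 8.98e-07), and *Col6a1* was at 743 and 307 CPM and at 0 to 0.187 CPM (-11.09 ± 0.57, adjusted p = 2.94e-06). Since these values in the lines include 0, the size of both differences depends on the 0.1 CPM added before taking logs. Over the other settings *Col6a1* ran from -12.1 to -8.50 and *Col2a1* from -11.4 to -8.53, so these ranges overlapped. *Col6a3* was at 336 and 186 CPM in preB-ALL (-10.16 ± 0.60), and *Col6a6*, the other type VI chain tested, was at -2.35 ± 0.63. Both preB-ALL libraries held more *Col6a2* than any MEF library, where the highest value of *Col6a2* was 339 CPM. Per kilobase of mRNA the order in preB-ALL was *Col1a2* (159 ± 85.9, SD, n = 2), *Col6a2* (151 ± 67.8), *Col6a1* (128 ± 75.3), *Col1a1* (111 ± 47.6) and *Col2a1* (105 ± 45.4 CPM per kilobase), and neighbours in this order differed by less than the SD of either.

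*Col2a1* was at 702 and 375 CPM in preB-ALL, beside 713 and 538 CPM in the no guide MEFs, and at 0.0406 to 0.337 CPM in the lines (-10.81 ± 0.53, adjusted p = 2.24e-06). The cartilage markers *Acan* (0 in both) and *Matn1* (0 and 1 read) were at or near 0 in preB-ALL, *Comp* was at 0.935 and 0.240 CPM and *Sox9* at 12.8 and 4.17 CPM. *Col4a1* was at 149 and 61.2 CPM (-7.89 ± 0.77), *Col4a2* at 84.6 and 34.1 CPM (-7.29 ± 0.52), *Col16a1* at 27.3 and 16.4 CPM (-6.86 ± 0.49) and *Col15a1* at 34.0 and 12.4 CPM (-6.76 ± 0.59). *Col18a1* differed less, at 42.2 and 41.4 CPM in preB-ALL and 0.720 to 4.06 CPM in the lines (-4.29 ± 0.65, adjusted p = 0.00105).

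The 2 preB-ALL libraries were not alike. Of 27 chains with over 10 reads in both, 21 were higher in library 1, with a median ratio of 1.93. The same count was not made over all genes. The 6 that went the other way included *Col27a1* (50.6 and 129 CPM), *Col5a3* (68.7 and 119.9 CPM), *Col11a2* (8.88 and 19.0 CPM) and *Col7a1* (2.74 and 6.09 CPM). *Col18a1* was nearly equal in both.

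**Figure D5:**
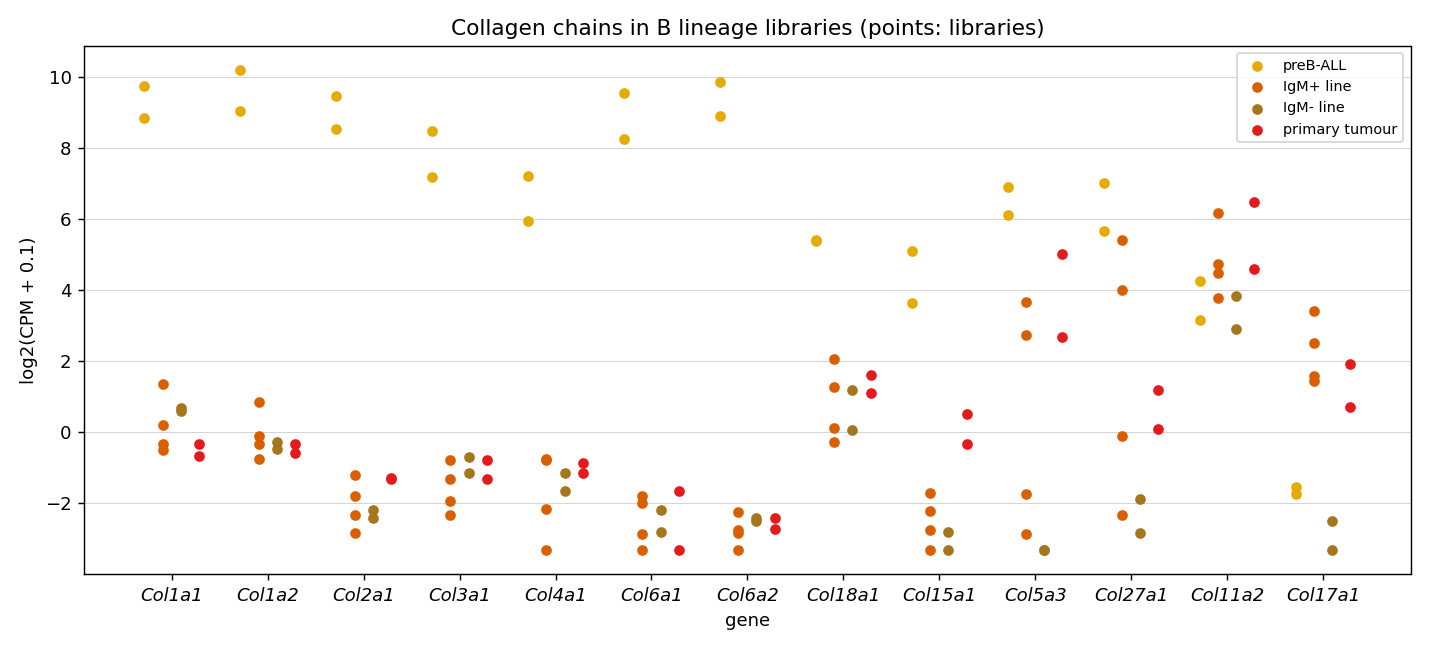
Level of 13 collagen chains as log2(CPM + 0.1) in the 2 preB-ALL, 6 lymphoma line and 2 primary tumour libraries, 1 point per library. The type I, II, III, IV and VI chains of preB-ALL lay above all lymphoma libraries, whereas *Col11a2* was at 7.38 to 89.98 CPM in the lymphoma libraries and at 8.88 and 19.0 CPM in preB-ALL.

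Markers of some stromal cell types differed in the same comparison. The 12 fibroblast markers summed to 483 and 235 CPM in preB-ALL and to 1.09 to 16.1 CPM in the 6 lines, and 8 of 10 tested were lower in the lines, among them *Pdgfrb* (183 and 85.1 CPM in preB-ALL, log2 -8.85 ± 0.50) and *Prrx1* (151 and 70.5 CPM, -8.23 ± 0.43). The fibroblast proteoglycans *Dcn* (0 in both) and *Lum* (1 and 0 reads) were at or near 0, and *Cxcl12*, a chemokine of marrow stroma, was at 1123 and 191 CPM. Of 9 markers of marrow stroma and bone 3 of 6 tested were lower in the lines, with sums of 1372 and 356 CPM in preB-ALL and 0.560 to 122 CPM in the lines, and of 8 mural markers 4 of 6 tested were lower. Of 10 endothelial markers 2 were tested and neither passed the test (*Cdh5* 0.77 ± 0.82, *Egfl7* 1.02 ± 0.89), with sums of 21.2 and 12.5 CPM in preB-ALL and 7.87 to 88.7 CPM in the lines, which overlapped. The 8 B cell markers summed to 4920 to 8610 CPM in preB-ALL and to 1107 to 2147 CPM in the lines. Of 33 assembly genes 17 were lower and 2 higher in the lines among 26 tested. *Serpinh1*, at 273 and 194 CPM in preB-ALL and 0.129 to 0.525 CPM in the lines, was at -8.80 ± 0.55, and the crosslinking enzyme *Lox*, at 597 and 196 CPM, at -8.10 ± 0.57. These values do not show which cells held the RNA, and their part in the collagen difference was not tested. Culture medium, RNA kit, the sequencing lane given in the file names and disease were the same split, so these cannot be told apart.

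Of these 23 calls, 19 held when any 1 of the 8 libraries was left out. *Col28a1* lost its call without preB-ALL library 1 (adjusted p = 0.159), *Col5a3* and *Col6a6* without either preB-ALL library (0.106 and 0.173 for *Col5a3*, 0.0786 and 0.108 for *Col6a6*), and *Col4a6*, which in the lines was present in line 15 alone (2.10 CPM), in every fit that kept line 15 and dropped another library (0.0584 to 0.174).

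Between 12 and 31 of the 44 chains were above 3 reads in each lymphoma line, and those with the highest values were *Col11a2*, *Col27a1*, *Col5a3* and *Col17a1*. *Col11a2*, the α2 chain of type XI collagen, was at 22.3, 71.8, 13.6 and 26.6 CPM in IgM-positive lines 14 to 17 and at 7.38 and 14.1 CPM in IgM-negative lines 18 and 19. It was the highest chain per kilobase in each line but line 16, where *Col27a1* led. *Col27a1* was at 15.9, 0.825, 42.2, 0.0996, 0.0391 and 0.172 CPM over lines 14 to 19, so lines 14 and 16 held nearly all of it. *Col5a3* was at 6.53 and 12.7 CPM in lines 14 and 15 and at most 0.199 CPM in the other lines. *Col17a1*, the hemidesmosome collagen, was at 2.64, 2.89, 5.57 and 10.6 CPM in the IgM-positive lines and at 0.0781 and 0 CPM in the IgM-negative lines. *Col27a1*, *Col5a3* and *Col17a1* each differed between single lines by more than 10-fold, and no test was made between IgM classes. The log2 difference from preB-ALL was 0.96 ± 0.71 for *Col11a2* (adjusted p = 0.301), 2.41 ± 1.78 for *Col17a1* (0.302) and -5.64 ± 2.26 for *Col27a1* (0.0747).

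The primary tumours were compared with the lines for collagen RNA of other cells. Of 19 chains tested against the 6 lines, 1 was higher and 1 lower in the tumours by limma, where 9.47% of 13106 genes were higher and 10.2% lower. Those 2 were also the only chains with an unadjusted p under 0.05, where 4541 of the 13106 genes had one. All type VI and all but 1 of the type IV chains were too low to be tested. The median chain difference was 0.57 (log2) against 0.03 for all genes.

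*Col15a1* was at 1.31 and 0.698 CPM in tumours 20 and 21 and at 0.203, 0, 0.114, 0.0498, 0 and 0.0431 CPM in lines 14 to 19 (2.71 ± 0.55, adjusted p = 0.0135). Both tumours lay above every line. *Col28a1* was at 0 in both tumours and at 0.122 to 0.498 CPM in the lines (-2.06 ± 0.51, adjusted p = 0.0273 by limma). With the tumours set at the 3-read floor of each library (0.131 and 0.150 CPM), it was at least 2.43-fold lower than the mean of the lines. Line 14, at 0.122 CPM, lay at its own 3-read floor and was not distinguishable from the tumours. Without tumour 20 *Col15a1* had an adjusted p of 0.0886 and *Col28a1* one of 0.12, without tumour 21 *Col28a1* had 0.127 and without line 19 it had 0.0513. Over the other settings the fitted *Col28a1* difference ran from -6.05 by edgeR to -0.42 with a pseudocount of 1 (adjusted p 0.0212 to 0.104), and it was not called with a pseudocount of 0.5 or 1 or against the IgM-positive lines only. Against lines 14 and 15 only, which came from the same mice, 0 of 17 chains were called by limma, where 0.267% of 12719 genes were called higher and 0.0629% lower. At an unadjusted p under 0.05 there were 2 chains and 3295 genes.

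The main chains of connective tissue did not pass the test. *Col1a1* was at 0.5257 and 0.698 CPM in tumours 20 and 21 (-0.91 ± 0.55 against the lines, adjusted p = 0.271), *Col1a2* at 0.569 and 0.698 CPM (-0.35 ± 0.47, adjusted p = 0.635) and *Col3a1* at 0.482 and 0.299 CPM (0.24 ± 0.54, adjusted p = 0.779). *Col5a2* (-0.58 ± 0.56), *Col4a1* (0.57 ± 0.72) and *Col18a1* (0.53 ± 0.66) also did not pass the test, and *Col6a1* and *Col4a2* were not tested, at 0.219 and 0 CPM and at 0.219 and 0.0499 CPM. The 12 fibroblast markers summed to 1.65 and 1.80 CPM in the tumours, within the range of the lines.

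The highest chains of the lymphoma lines were also measured in the tumours. *Col11a2* was at 89.98 and 24.1 CPM in tumours 20 and 21 (1.14 ± 0.78, adjusted p = 0.333), *Col5a3* at 6.26 and 32.1 CPM (4.59 ± 2.08, adjusted p = 0.158) and *Col17a1* at 3.72 and 1.55 CPM. *Col11a1* was at 0.394 and 9.47 CPM and in the lines at most 0.187 CPM, and *Col7a1*, the chain with the smallest p after those called and *Col5a3*, was at 3.59 and 2.49 CPM (0.82 ± 0.45, adjusted p = 0.238). The 2 tumours overlapped the lines for *Col11a2*, *Col5a3* and *Col17a1*. The 8 macrophage markers summed to 16.2 and 11.5 CPM in the tumours and 0.341 to 2.68 CPM in the lines, with *Adgre1* at 13.3 and 6.33 CPM and at 0 in all 6 lines. The part of macrophage RNA in the tumour values was not tested. Of 33 assembly genes 1 rose (*Ppib*, a prolyl isomerase, 0.78 ± 0.11) and 1 fell (*P4ha1*, -1.49 ± 0.32) among 17 tested.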

How the data were processed

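RNA of 20 mouse libraries had been prepared with the TruSeq RNA Library Prep Kit v2, aligned and counted against GRCm38 (mm10) by the authors with Rsubread. The deposited values are CPM per Entrez gene, made by the authors from read counts with edgeR. Each deposited CPM value was a whole multiple of the value of 1 read (100% of values, tolerance 0.01 read), so reads per library were recovered and served as depth. No column was left unmapped (0). Symbols were matched through RefSeq (25242 identifiers), with 613 left without one. Levels per kilobase used the longest GENCODE M21 transcript paired with a RefSeq mRNA.

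Genes were kept by filterByExpr on the recovered reads, and log2(CPM scaled by TMM + 0.1) was tested with limma 3.58.1 (empirical Bayes with trend) in R 4.3.3, with Benjamini-Hochberg adjustment over all genes tested and a threshold of 0.05. A planned use of the edgeR quasi-likelihood test as the main test applied only to count files; it was run here on the recovered reads as an alternative (edgeR 4.0.16), with limma-voom, other scalings (none, RLE), pseudocounts of 0.5 and 1, no filter, a threshold of 0.01, all 10 MEF libraries in 1 fit, a replicate block and leaving out each library. Fold changes of the main limma fits are on the log2(CPM + 0.1) scale and understate changes of low genes. Those by edgeR, limma-voom or another pseudocount are on the scale of that setting. Figures were drawn with matplotlib 3.10.9. The limma step was tested on simulated data with known changes. No 2 libraries of a group agreed within sampling noise by a chi-square test of their reads.

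The named chains were *Col1a1*, *Col1a2*, *Col3a1*, *Col5a2*, *Col4a1*, *Col4a2*, *Col6a1* and *Col18a1* in every comparison, plus up to 12 called chains with the smallest adjusted p, plus the 4 with the smallest p where fewer than 4 were called; chains outside this rule were named after their values were seen. Assembly genes and markers were named by smallest adjusted p or as defining markers. The members and lists were chosen with earlier results of these data known.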

Additional observations from a re-analysis of the deposited data

Results flagged for a closer look

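The values of 4 libraries and chains stood apart from the rest of their group by Dixon's criterion among 52 groups of 4 to 10 libraries examined, where chance flags about 1 in 20 groups. *Col18a1* was at 31.3 CPM in sg*Bcl-2* MEF line 2 library 1, whereas the nearest of the other 3 libraries was at 21.9 CPM. *Col7a1* was at 2.55 CPM in IgM-positive line 14, above the next IgM-positive line at 1.55 CPM. Among the 6 lymphoma lines, line 15 was highest for *Col1a2* (1.69 CPM, next 0.834 CPM) and for *Col5a2* (1.01 CPM, next 0.431 CPM).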

How the results depend on the processing

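Among the counts of called chains, 51 of the values under other settings lay within 1.5 times the main count and 10 did not. Fitted with all 10 MEF libraries, the counts were 5 for no guide against WT, 7 for sgNT against no guide and 0 for sg*Bcl-2* against sgNT. Over all 15158 genes the calls in these fits were 717, 901 and 64. At a threshold of 0.01 the counts were 1 for sg*Bcl-2* against sgNT (319 of 14676 genes) and 0 for tumours against lines (771 of 13106 genes). For tumours against lines the count was 1 with a pseudocount of 0.5 or 1 (*Col28a1* lost, 2729 and 2780 of 13106 genes called). It was 5 with no filter on low values (3246 of 19310 genes) and 0 against lines 14 and 15 only (42 of 12719 genes). Against the IgM-positive lines only it was 1 (*Col28a1* lost, 1418 of 12983 genes). With the MEF line as a replicate block, the paired fit called 26 chains in sgNT against no guide (5403 of 14655 genes, against 6029 without the block) and 9 in sg*Bcl-2* against sgNT (2148 of 14676 genes, against 1592). It called 0 in each WT comparison. At an unadjusted p under 0.05 by limma these held 8 and 9 chains, with 935 of 14546 and 759 of 14560 genes. With the libraries of 1 MEF line summed and the block, sg*Bcl-2* against sgNT had 11 (2654 of 15085 genes). In the block fits of single libraries the added chains were *Col19a1* for sgNT against no guide (adjusted p = 0.0128 by limma) and *Col11a1* for sg*Bcl-2* against sgNT (0.0358). The labels share only a number between these groups: over 15158 genes the correlation of same-numbered deviations from the group means was -0.05 for no guide and sgNT, 0.33 for sgNT and sg*Bcl-2* and -0.13 for no guide and sg*Bcl-2*. The fit of summed libraries added *Col11a1* (0.00243), *Col9a2* (0.041) and *Col5a3* (0.0461).

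Some log2 differences near 0 changed sign, and the cause was not tested. *Col3a1* was at -0.087 by edgeR in no guide against WT. *Col4a1* in sgNT against WT was at -0.0072 by edgeR, -0.012 by limma-voom, -0.0094 with no scaling and -0.0085 with RLE. In sg*Bcl-2* against sgNT no scaling gave -0.070 for *Col5a2*, -0.088 for *Col4a1*, -0.039 for *Col4a2* and -0.047 for *Col6a1*, where it moved the median of all genes to -0.10. *Col18a1* in tumours was at -0.36 against lines 14 and 15 only.

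Leaving out 1 library gave counts of 0 to 27 for no guide against WT, 0 to 28 for sgNT against WT, 19 to 26 for sgNT against no guide, 0 to 10 for sg*Bcl-2* against sgNT, 19 to 23 for lines against preB-ALL and 1 to 2 for tumours against lines. In no guide against WT the log2 difference ran from -0.17 to 2.596 for *Col1a2*, -0.90 to 1.85 for *Col3a1*, -0.0028 to 0.46 for *Col4a2* and -0.50 to 1.79 for *Col6a1*. In sgNT against WT it ran from -0.055 to 1.20 for *Col5a2*, -0.20 to 0.24 for *Col4a1* and -0.25 to 0.19 for *Col4a2*. In sg*Bcl-2* against sgNT it ran from -0.035 to 0.049 for *Col5a2*, -0.12 to 0.13 for *Col4a1*, -0.027 to 0.13 for *Col4a2* and -0.047 to 0.13 for *Col6a1*, and in tumours from -0.0019 to 0.50 for *Col3a1*. A group reduced to 1 library was assumed to vary like the others. Depth sets the floor of 3 reads, and 12 to 31 of the 44 chains in the lymphoma lines, 25 in each tumour and 30 and 31 in the shallower preB-ALL libraries lay above it.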
